A study of Rattus norvegicus with 18 samples.

Results

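Rab GTPases are small membrane-bound switches that direct vesicle traffic, and 56 of their genes were measured here among 14217 genes that the array annotation ties to a probe set with a single symbol. A gene was taken as a Rab gene when its symbol was Rab followed by a number and at most 1 letter. The rule found 97 probe sets, and the probe set with the highest mean intensity over the 18 arrays stood for each gene. The rule thus used names and mean level and no difference between groups, although the Rab genes were chosen with earlier results of these data known. The genes were sorted by the compartment where their proteins are best known to act: 10 at the early endosome, 9 in recycling and transport to the plasma membrane, 10 at the late endosome and lysosome, 13 at the endoplasmic reticulum and Golgi, 8 in regulated secretion, and 6 in cilia, autophagy and other roles.

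A Rab protein loaded with GTP by a guanine nucleotide exchange factor (GEF) settles on its own membrane and recruits effectors such as motors and tethers. A GTPase-activating protein (GAP) then turns it off, and escort proteins and GDP dissociation inhibitors carry the lipid-modified protein between membranes. In cytotoxic T cells Rab27a is needed for the release of lytic granules, in macrophages Rab5 and Rab7 proteins drive the ripening of phagosomes, and in endocrine and nerve cells Rab3 proteins prepare vesicles for release.

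The study transplanted hearts of Wistar Furth (WF; RT1.Au) rats into the abdomen of ACI (RT1.Aa) recipients, all adult inbred males. Recipients of the first group had no treatment. Those of the second were given oral cyclosporine, a calcineurin inhibitor, at 10 mg/kg/day on days 0 to 2, a dose called sub-therapeutic in the labels. Those of the third had the same cyclosporine course and an allochimeric class I peptide, 1 mg/kg into the portal vein when the heart was grafted. Graft tissue and T cells were taken on days 1, 3 and 7, and each of the 18 combinations of tissue, treatment and day has 1 array. All heart samples are allografts, and no syngeneic graft or heart that was not transplanted was analysed here. All samples carry the strain label Wistar Furth, T cells included, and the labels do not settle whether the T cells came from ACI recipients or WF animals. The labels also give neither the organ the T cells came from, nor how they were purified, nor whether RNA of several animals was pooled. With no repeat arrays, the arrays that share the compared tissue, day or treatment served as replicates. The p-values measure the spread that the terms of the model leave over between those arrays. That spread may be technical, and it also holds day differences that vary with treatment. In the tissue comparison it further holds day or treatment differences that vary with tissue.

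Array medians lay between 210 and 231 in the grafts and between 195 and 210 in the T cells, on the linear scale of the deposited intensities. The cell type markers fitted the tissue labels: 8 cardiomyocyte markers summed to 83775 to 116418 in the grafts and to 213 to 327 in the T cell samples, and 10 T cell markers summed to 53416 to 75383 in the T cell samples. The T cell samples were not pure, since 8 macrophage markers summed to 24728 to 39938 and 4 B cell markers to 7000 to 22956 in them. The untreated day 1 T cell array stood apart, with a sum of 38056 over 6 neutrophil markers against 1157 to 3323 on the other 8 T cell arrays, the highest B cell sum (22956 against at most 14852) and the lowest sum of T cell markers. Results that use this array are therefore also given without it where they change. In these bulk samples, fewer cells of a type and less RNA per cell cannot be told apart.

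The first comparison asked which Rab genes differ between T cells and grafted hearts. T cells had more Rab37, Rab19, Rab33a, Rab25 and Rab27a mRNA than the grafts, and less Rab34, Rab13, Rab3b, Rab30 and Rab31. Of 49 Rab genes tested, 16 were higher in T cells and 27 were lower at an adjusted p below 0.05 (limma on log2 of intensity plus 16, 9 arrays against 9, Benjamini-Hochberg adjustment over all probe sets tested). Over all 22327 probe sets tested, 47.9% were higher in T cells and 35.5% lower. The median difference was -0.31 on the log2 scale over the Rab genes tested and 0.15 over all probe sets. A probe set was tested when it exceeded the 40th percentile of its array on at least 3 arrays, a level of 126 to 145, and 7 Rab genes (Rab17, Rab27b, Rab36, Rab39a, Rab3c, Rab6b and Rab9b) did not reach it in any comparison. Rab15, Rab23, Rab30, Rab38 and Rab40b passed only through the grafts and Rab19, Rab25, Rab33a and Rab37 only through the T cells, so these had to differ, and their differences are given below as values with no test. Of the 40 genes that passed in each tissue, 12 were higher in T cells and 22 lower, with a median difference of -0.29. As a sign of RNA quality, the intensity ratio of actin control probe sets at the 3' and 5' ends (3' over 5') was 1.41 to 2.44 in the grafts and 1.27 to 1.40 in the T cells, while that of GAPDH overlapped between the tissues; their part in the tissue differences was not tested.

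**Figure D1:**
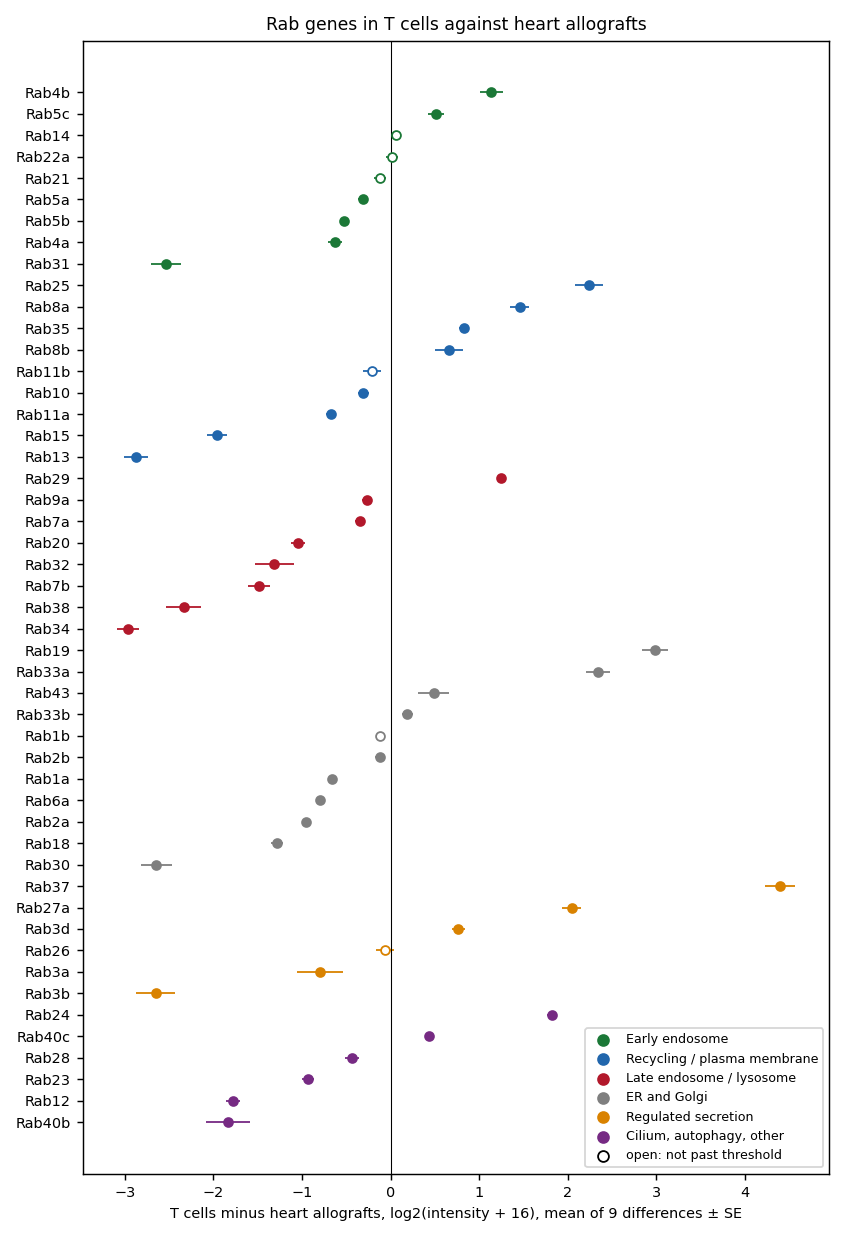
Difference in intensity between T cells and heart allografts for 49 Rab genes (x axis, mean log2 difference over 9 treatment and day combinations, bars ± SE), grouped by the compartment of the protein. Filled points are past an adjusted p of 0.05. Rab15, Rab23, Rab30, Rab38 and Rab40b passed the filter only through the grafts, and Rab19, Rab25, Rab33a and Rab37 only through the T cells. No test is read from the filled points of these genes. Of the 8 late endosome and lysosome genes 7 lie on the left, Rab38 among them, and Rab37 lies farthest to the right at 4.40.

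Regulated secretion held the gene with the highest difference. Rab37, a Rab of secretory granules, had intensities of 902 to 1607 in T cells (median 1371) and 22.2 to 100 in the grafts (median 39.2), with no overlap. Every graft value lay below the filter level, so the log2 difference of 4.40 ± 0.17 (SE) was taken against background, and it was 3.62 with 64 and 4.72 with 4 added in place of 16. Rab27a, which docks lytic granules, had 3498 to 4376 in T cells (median 4043) and 685 to 1516 in the grafts (median 813), a log2 difference of 2.05 ± 0.11 (SE, limma adjusted p = 4.39e-11), in the same direction in all 9 pairs of arrays matched by treatment and day. Rab3d was also higher in T cells, by 0.76 ± 0.07 (SE). The other Rab3 genes ran the opposite way. Rab3b had 470 to 1963 in the grafts (median 1720) and 141 to 247 in T cells (median 164), a log2 difference of -2.65 ± 0.22 (SE, limma adjusted p = 1.37e-08). Rab3a was lower in T cells by a smaller amount, -0.80 ± 0.26 (SE), and its direction held in 6 of 9 matched pairs, the exceptions being the 3 pairs of day 7.

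Rab19, a Golgi-associated Rab, had 402 to 676 in T cells (median 595) and 29.0 to 144 in the grafts (median 45.2), a log2 difference of 2.99 ± 0.15 (SE). Rab33a, a close relative of the Golgi and autophagy Rab33b, had 324 to 677 in T cells (median 458) and 57.4 to 168 in the grafts (median 78.0), a difference of 2.34 ± 0.13 (SE). For each of these genes every T cell array lay above every graft array. The Rab19 promoter is shown because it is the only one of 46 Rab promoter windows that holds the core of an interferon-stimulated response element, here GAAA, 2 bases of any kind and GAAA again, searched on both strands. That core is found in 3.92% of all 33469 RefSeq promoter windows of the same length, a higher share than the 1 of 46 among the Rab windows. The match therefore does not set the Rab windows apart, and other motifs were searched as well. The window runs from 250 bases before to 50 bases after the annotated start on GRCr8, chr4:69123712-69124011, plus strand, and capitals mark 2 overlapping matches that read on the opposite strand.
Rab19: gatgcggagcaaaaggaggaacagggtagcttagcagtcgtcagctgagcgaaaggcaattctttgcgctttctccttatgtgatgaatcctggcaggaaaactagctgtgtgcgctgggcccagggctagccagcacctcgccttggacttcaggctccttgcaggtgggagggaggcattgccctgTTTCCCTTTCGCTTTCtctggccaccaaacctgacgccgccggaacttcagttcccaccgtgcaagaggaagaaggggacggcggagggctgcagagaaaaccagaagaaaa
A match to these letters is a description of the window and not evidence of a bound factor.

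The late endosome and lysosome group was mostly lower in T cells, with 7 of its 8 tested genes lower and 1 higher. Over all probe sets 35.5% were lower and 47.9% higher, and the group was not tested against these. Its count includes Rab38, which passed the filter only through the grafts. Rab34, which acts in lysosome positioning and cilium formation, had 901 to 1719 in the grafts (median 1227) and 103 to 191 in T cells (median 152). Its log2 difference was -2.96 ± 0.12 (SE, limma adjusted p = 2.94e-12), and the tissues did not overlap. Rab38 and Rab32, the pair that builds lysosome-related organelles, were lower, at -2.34 ± 0.20 and -1.31 ± 0.22 (SE), and Rab7b, Rab20, Rab7a and Rab9a at -1.49 to -0.27. Rab29, a trans-Golgi and lysosome Rab, was the exception, with 3617 to 5048 in T cells (median 4634) and 1603 to 2113 in the grafts (median 1908), a log2 difference of 1.25 ± 0.05 (SE, limma adjusted p = 2.38e-12).

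Close relatives in recycling and endocytosis did not run together between the tissues. Rab13, a Rab of epithelial and endothelial tight junctions, had 809 to 1957 in the grafts (median 1276) and 96.6 to 266 in T cells (median 163), a log2 difference of -2.88 ± 0.14 (SE, limma adjusted p = 1.54e-11). The relatives Rab8a and Rab8b, which carry cargo to the plasma membrane, were higher in T cells by 1.46 ± 0.11 and 0.66 ± 0.16 (SE). On day 7, however, Rab8b was lower in T cells with cyclosporine (2045 against 2211) and with cyclosporine plus peptide (1771 against 2378). Rab25, a relative of Rab11, had 296 to 575 in T cells (median 403) and 38.6 to 96.6 in the grafts (median 81.7), all of the latter below the filter level, a log2 difference of 2.24 ± 0.15 (SE). Rab11a itself was lower in T cells, at -0.67 ± 0.06 (SE). Among the early endosome genes, Rab4b and Rab5c were higher in T cells by 1.14 ± 0.13 and 0.51 ± 0.09 (SE), whereas Rab4a, Rab5a, Rab5b and Rab31 were lower, Rab31 at -2.53 ± 0.17 (SE). The differences between relatives were not tested.

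In the Golgi group 4 genes were higher in T cells and 6 lower of 11 tested, beside 47.9% and 35.5% of all probe sets. These counts include Rab19 and Rab33a, which passed the filter only through the T cells, and Rab30, which passed only through the grafts. Rab30, a Golgi Rab, had 454 to 910 in the grafts (median 663) and 56.6 to 282 in T cells (median 72.5), a log2 difference of -2.65 ± 0.17 (SE). The general secretory Rabs Rab1a, Rab2a, Rab6a and Rab18 were lower in T cells at -0.66 to -1.28, and Rab2b at -0.12 ± 0.05 (SE). In the last group Rab24, linked to autophagy, was higher in T cells by 1.83 ± 0.06 (SE) in all 9 matched pairs, and Rab12 and Rab40b were lower, at -1.78 ± 0.07 and -1.84 ± 0.25 (SE). Rab14 had 5 probe sets that were called in opposite directions between the tissues, at -0.88 and 1.52, while its brightest probe set gave 0.06, so no direction is given for it.

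The array that stood apart also stood apart for several of these genes. On the untreated day 1 T cell array Rab31 had an intensity of 1088 against 339 to 435 on the other 8 T cell arrays, Rab32 had 1083 against 361 to 697, and Rab38 had 191 against 42.0 to 99.9. Rab30 had 282 against 56.6 to 160, and Rab7b had 358 against 251 to 263. Rab37, Rab19 and Rab33a lay lowest on that array, at 902, 402 and 324. The neutrophil and B cell sums of the array are given above, and their part in these values was not tested. Without the array 42 Rab genes were called between the tissues, in place of 43, or 85.7% of those tested beside 83.5% of all probe sets.

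The partners of the Rab proteins were taken from lists of chaperones, GEFs, GAPs and effectors. Partners that passed the filter only through the grafts or only through the T cells were not set apart. The counts and values of partners may therefore include genes that had to differ. All 5 chaperones tested were higher in T cells, with Rabggta, a subunit of the enzyme that attaches the lipid, at 0.93 ± 0.06 and the escort protein Chm at 0.74 ± 0.08 (SE). Of 25 GEFs, 17 were higher and 5 lower, with Dennd2d at 4.87 ± 0.33 and Dennd1c, a GEF of the family that acts on Rab35, at 3.91 ± 0.27 (SE). Dennd2b was lower, at -3.40 ± 0.09 (SE). Of 28 GAPs, 12 were higher and 10 lower, with Tbc1d10c at 3.16 ± 0.11 and Sgsm2 at -1.65 ± 0.10 (SE). Of 38 effectors, 15 were higher and 19 lower. Beside the 47.9% and 35.5% of all probe sets, 68% and 20% of the GEFs were higher and lower, 42.9% and 35.7% of the GAPs, and 39.5% and 50% of the effectors, so that the GAPs lay near the array as a whole; the lists were not tested against it. The Rab27 effectors Sytl1 and Unc13d, the second of which is needed for lytic granule release, were higher by 3.82 ± 0.20 and 3.04 ± 0.18 (SE), and Rilpl1 and Ehbp1, effectors of Rab8 and Rab10, were lower, at -3.90 ± 0.17 and -3.63 ± 0.09 (SE).

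The second question was how the Rab genes moved in the grafts over time. From day 1 to day 7 Rab43, Rab32, Rab8b, Rab13, Rab4b and Rab8a rose, and Rab3a, Rab3b, Rab40b and Rab11b fell. Of 45 genes tested, 18 rose and 13 fell (limma, 3 arrays a day, adjusted p below 0.05), where 30.9% of all 19737 probe sets tested rose and 33.8% fell, so the share called among the Rab genes was near that of the array as a whole. Of the 41 genes above the filter level on all 3 arrays of both days, 16 rose and 11 fell. The median difference was -0.002 over the Rab genes and -0.02 over all probe sets. The compartments divided unevenly. In each of the early endosome, recycling, and late endosome groups 5 genes rose and 1 fell, of 9, 8 and 8 tested. In the Golgi group 1 rose and 5 fell of 9, in regulated secretion 2 rose and 2 fell of 5, and in the last group none rose and 3 fell of 6 (limma). The counts include Rab26, Rab3a, Rab40b and Rab43, which were not above the filter level on all arrays of both days. They also include Rab14, whose probe sets were called in opposite directions. Rab43 was the only Golgi gene that rose. These differences between compartments were not tested.

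The cell type markers of the grafts moved in the same interval. From day 1 to day 7 the T cell marker sum went from 1354 to 2213 up to 18526 to 23437, the sum of 6 cytotoxic markers from 994 to 1136 up to 12424 to 13040, and the macrophage sum from 13394 to 14269 up to 50462 to 53070. The cardiomyocyte sum went from 110568 to 115283 down to 83775 to 98235, and that of 6 endothelial markers from 12149 to 13368 down to 5141 to 6600. The neutrophil sum went from 5110 to 11859 down to 1529 to 2414, and that of 7 fibroblast markers from 53316 to 58881 up to 59972 to 81385. The actin ratio (3' over 5') was 1.84 to 2.44 in the day 1 grafts and 1.41 to 1.43 in the day 7 grafts, while for GAPDH the ratios of the day 7 grafts, at 1.51 to 1.54, lay within the range of the day 1 grafts. The part of these shifts in the Rab results was not tested.

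**Figure D2:**
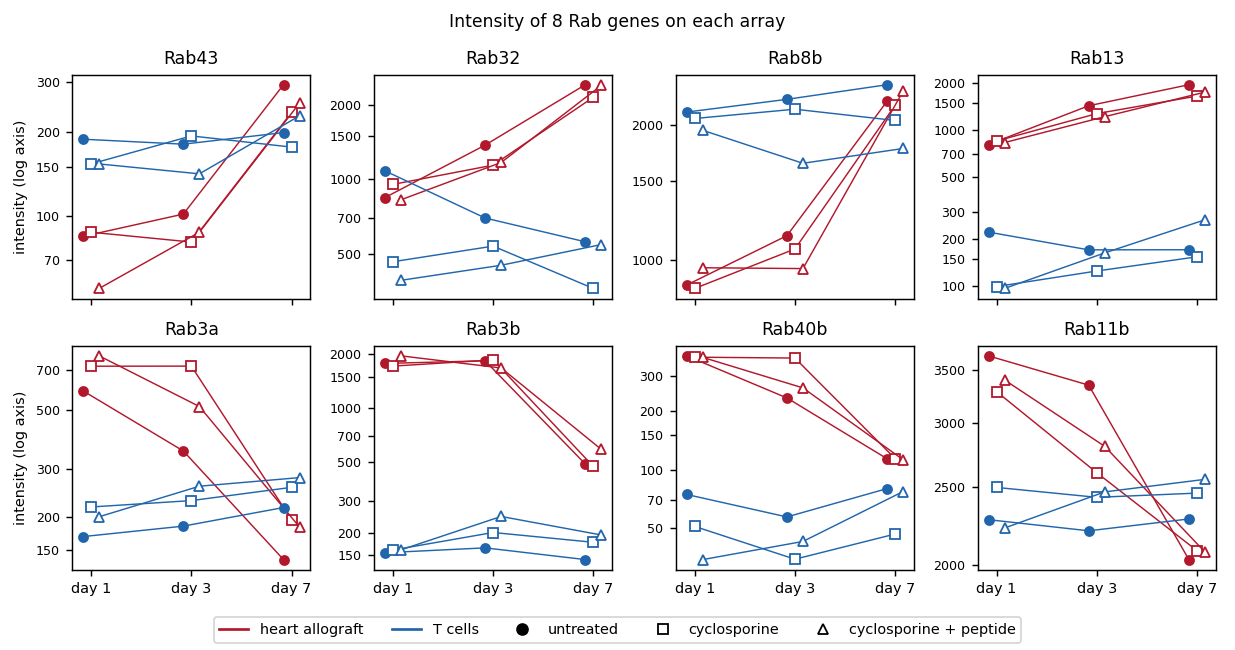
Intensity on each array (log axis, scale differs between panels) of the 4 Rab genes that rose most and the 4 that fell most in the grafts between day 1 and day 7, with red lines for grafts and blue for T cells, and a symbol for each treatment. The 3 red lines of a panel run together from day 3 to day 7, upward in the top row and downward in the bottom row.

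Rab43, a Golgi and phagosome Rab, had the highest rise with 16 added before the log, a rank that depended on this constant. Its graft intensities were 84.9, 87.8 and 55.4 on day 1 in the untreated, cyclosporine and cyclosporine plus peptide groups, then 102, 81.0 and 87.8 on day 3, and 294, 234 and 253 on day 7. The day 7 values lay above all others, and above the 142 to 228 of the T cells. The log2 difference between day 7 and day 1 was 1.60 ± 0.14 (SE), given with no test because the gene passed the filter only through its day 7 arrays. With 64 added it was 1.22, below Rab32 at 1.35 and Rab8b at 1.28. Rab32, which acts on lysosome-related organelles and phagosomes, rose at each step, with 843, 954 and 826 on day 1, 1377, 1142 and 1170 on day 3, and 2420, 2152 and 2404 on day 7. No pair of days overlapped. The log2 difference between day 7 and day 1 was 1.40 ± 0.09 (SE, limma adjusted p = 8.41e-06), and that between day 3 and day 1 was 0.48 ± 0.09 (SE, limma adjusted p = 0.00849).

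Rab8b had 878, 862 and 959 on day 1, 1131, 1056 and 955 on day 3, and 2257, 2211 and 2378 on day 7. Days 1 and 3 overlapped, and the day 7 grafts reached the 1641 to 2457 of the T cells. The log2 difference between day 7 and day 1 was 1.33 ± 0.08 (SE, limma adjusted p = 5.68e-06), and the gene's other probe sets gave 1.08 and 1.68. Its relative Rab8a had 1627, 1712 and 1500 on day 1 and 3042, 3247 and 3265 on day 7, a log2 difference of 0.98 ± 0.06 (SE, limma adjusted p = 7.89e-06). Rab13 had 809, 852 and 833 on day 1, 1434, 1276 and 1221 on day 3, and 1957, 1655 and 1754 on day 7, a log2 difference of 1.09 ± 0.07 (SE, limma adjusted p = 9.96e-06). Its level in T cells stayed at or under 266 on every array.

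Other genes, of endosomes, lysosomes, recycling and regulated secretion, rose by less than Rab13. Rab4b, of the fast recycling route, had 407, 431 and 479 on day 1 and 983, 840 and 875 on day 7 (log2 difference 1.01 ± 0.14 SE, limma adjusted p = 0.000446). Rab27a had 781, 770 and 685 on day 1 and 1228, 1516 and 1513 on day 7 (0.91 ± 0.10 SE, limma adjusted p = 8.64e-05). Rab7b, which acts between late endosomes and the Golgi, had 565, 646 and 569 on day 1 and 1266, 1049 and 971 on day 7 (0.86 ± 0.11 SE, limma adjusted p = 0.000221). For each of these the day 7 grafts lay above the day 1 grafts with no overlap. Rab38, Rab26 and Rab5c rose by 0.77 ± 0.22, 0.73 ± 0.15 and 0.70 ± 0.09 (SE), with Rab26 below the filter on day 1. Rab35, Rab7a, Rab21, Rab31, Rab10 and Rab9a rose by 0.16 to 0.34. Rab14, counted among the genes that rose, had probe sets at 0.15 (the brightest), 0.38 and 0.34 and another at -0.42, each past the threshold, so that its direction is uncertain.

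The secretory Rab3 genes fell most. Rab3a had 587, 725 and 792 on day 1, 351, 725 and 513 on day 3, and 138, 195 and 183 on day 7, with day 7 below all earlier arrays. The log2 difference between day 7 and day 1 was -1.93 ± 0.13 (SE, limma adjusted p = 1.15e-05), and a second probe set gave -1.54. Rab3b had 1780, 1720 and 1963 on day 1, 1841, 1864 and 1679 on day 3, and 485, 470 and 586 on day 7. The first days overlapped, and the day 7 values were far below them, a log2 difference of -1.80 ± 0.09 (SE, limma adjusted p = 3.16e-06). Rab3d, a granule Rab of secretory cells, had 441 to 607 over all 9 grafts and a log2 difference of -0.02 ± 0.11 (SE, limma adjusted p = 0.913).

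Rab40b, which acts in a ubiquitin ligase complex, had 383, 377 and 376 on day 1, 233, 373 and 262 on day 3, and 114, 114 and 113 on day 7, under the filter on day 7. Its log2 difference between day 7 and day 1 was -1.61 ± 0.13 (SE), given with no test because it passed the filter only through the days when it was high. Rab11b, of the recycling endosome, had 3644, 3288 and 3400 on day 1, 3349, 2604 and 2809 on day 3, and 2029, 2082 and 2073 on day 7, the last below all T cell arrays (2204 to 2555). Its log2 difference was -0.73 ± 0.07 (SE, limma adjusted p = 6.57e-05). Rab12, Rab28 and Rab30 fell, at -0.57, -0.51 and -0.52, and the Golgi genes Rab2a, Rab1b, Rab33b and Rab18 at -0.35 to -0.27. Rab34 and Rab5b fell, at -0.28 and -0.23.

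Relatives therefore often parted. Rab4b rose, and Rab4a gave -0.09 ± 0.05 (SE). Rab5c rose, Rab5b fell, and Rab5a gave -0.07 ± 0.07 (SE). Rab11b fell, and Rab11a gave -0.03 ± 0.05 (SE). Rab1b and Rab2a fell, and Rab1a and Rab2b gave 0.10 ± 0.04 and -0.08 ± 0.07 (SE). Rab40b fell, and Rab40c gave 0.03 ± 0.06 (SE). Rab8a and Rab8b rose, as did Rab7a and Rab7b. The differences within these pairs were not tested, and probe sets of close relatives may share target sequence. Of 23 Rab genes with several probe sets tested in this comparison, the probe sets had the same sign in 20.

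Promoters of the highest risers and fallers are shown for comparison, from RefSeq on GRCr8, each 300 bases long. Capitals mark the GC box GGGCGG on either strand, a motif of many broadly expressed genes that was found in 36 of 46 Rab windows (78.3%) and in 33.1% of all windows. Rab43 lies at chr4:121826462-121826761, Rab32 at chr1:6781209-6781508 and Rab3a at chr16:18722224-18722523, all on the minus strand, and Rab3b at chr5:128858841-128859140 on the plus strand.
Rab43: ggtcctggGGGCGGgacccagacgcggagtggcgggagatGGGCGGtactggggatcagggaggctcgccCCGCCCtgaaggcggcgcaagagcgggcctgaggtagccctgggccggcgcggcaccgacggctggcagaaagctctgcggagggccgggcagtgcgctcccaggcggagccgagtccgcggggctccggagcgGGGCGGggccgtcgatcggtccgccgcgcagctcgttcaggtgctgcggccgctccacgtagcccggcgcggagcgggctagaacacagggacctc
Rab32: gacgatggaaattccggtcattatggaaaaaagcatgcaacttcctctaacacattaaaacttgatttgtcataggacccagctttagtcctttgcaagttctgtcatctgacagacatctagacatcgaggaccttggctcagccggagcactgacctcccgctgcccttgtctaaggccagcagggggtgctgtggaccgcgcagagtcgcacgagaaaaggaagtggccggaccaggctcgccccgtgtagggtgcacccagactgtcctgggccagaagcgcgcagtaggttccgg
Rab3a: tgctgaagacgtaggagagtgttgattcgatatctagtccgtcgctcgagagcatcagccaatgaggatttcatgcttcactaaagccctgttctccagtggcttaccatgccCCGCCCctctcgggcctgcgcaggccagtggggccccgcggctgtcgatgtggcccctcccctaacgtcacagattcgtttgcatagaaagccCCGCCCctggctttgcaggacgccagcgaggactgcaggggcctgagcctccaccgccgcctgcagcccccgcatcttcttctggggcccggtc
Rab3b: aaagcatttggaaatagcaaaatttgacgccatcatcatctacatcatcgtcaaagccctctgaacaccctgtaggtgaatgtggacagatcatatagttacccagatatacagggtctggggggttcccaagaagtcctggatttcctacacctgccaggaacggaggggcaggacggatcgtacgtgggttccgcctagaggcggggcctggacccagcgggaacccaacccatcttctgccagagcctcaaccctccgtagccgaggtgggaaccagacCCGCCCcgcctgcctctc
Rab43 held 4 GC boxes, Rab3a 2 and Rab3b 1, and Rab32 held none. The windows matched 45 of the 56 Rab genes by symbol, with 2 windows for Rab30.

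Part of the movement was present by day 3. Between day 1 and day 3, 7 of 45 Rab genes rose and 6 fell in the grafts (limma), with 14.6% of all probe sets higher and 12.9% lower. Among the 43 genes above the filter level on all arrays of both days, 6 rose and 6 fell. Rab26, a granule Rab, had 94.3, 111 and 117 on day 1 and 206, 164 and 166 on day 3 (0.65 ± 0.15 SE, with no test since day 1 was below the filter). Rab13 rose by 0.64 ± 0.07 and Rab31 by 0.38 ± 0.06 (SE), and Rab32, Rab34, Rab9a and Rab8a were the others. Rab30 had 910, 768 and 821 on day 1 and 663, 531 and 490 on day 3 (-0.56 ± 0.10 SE, limma adjusted p = 0.00781), and Rab3a, Rab29, Rab11b, Rab1b and Rab28 also fell, at -0.44 to -0.19. In this interval 7 of 8 macrophage markers and 5 of 7 fibroblast markers rose (limma), to sums of 20545 to 26711 and 88474 to 94321, and the T cell sum was 1765 to 2725; their part in the Rab results was not tested. The day 3 count was unstable: it was 9 without the untreated arrays, 5 without the cyclosporine arrays and 4 without the cyclosporine plus peptide arrays, or 20.5%, 11.4% and 9.09% of the Rab genes beside 18.4%, 10.5% and 8.36% of all probe sets. With array medians set equal, 6 genes rose and 8 fell.

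Between day 3 and day 7, 15 Rab genes rose and 13 fell of 45 (limma), with 26.9% of all probe sets higher and 29.4% lower. Among the 42 genes above the filter level on all arrays of both days, 14 rose and 11 fell. This comparison shares its day 7 arrays with the day 7 against day 1 comparison above. Rab43 rose by 1.38 ± 0.14, Rab8b by 1.11 ± 0.08, Rab32 by 0.91 ± 0.09, Rab27a by 0.80 ± 0.10 and Rab13 by 0.44 ± 0.07 (SE). Rab3b fell, at -1.78 ± 0.09, Rab3a at -1.49 ± 0.13 and Rab40b at -1.21 ± 0.13 (SE). Rab43, below the filter on day 3, and Rab40b, below it on day 7, are given with no test. Rab34 was higher on day 3, at 1719, 1548 and 1522, than on day 1 (1291, 1179 and 1227) or day 7 (1008, 901 and 1133). Its fall from day 3 was -0.65 ± 0.08 (SE, limma adjusted p = 0.000233), but only -0.18 by its second probe set, which did not pass.

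Among the effectors and regulators of the Rab proteins the differences between day 7 and day 1 in the grafts ran from -2.03 to 3.43. Those above the filter level only on the days when they were high were not set apart. The counts and values here may therefore include genes that had to differ. Of 38 effectors tested, 14 rose and 16 fell (limma). Sytl3, a Rab27 effector, rose by 3.43 ± 0.17 and Rab11fip4, a Rab11 effector, by 1.78 ± 0.13 (SE). Myo5b, a motor that carries Rab11 vesicles, fell, at -2.03 ± 0.15, and Rph3al, an effector of Rab3 and Rab27 in secretory cells, at -1.93 ± 0.14 (SE). Of 24 GEFs, 12 rose and 6 fell, with Dennd2d at 2.88 ± 0.22 and Dennd1c at 2.37 ± 0.14 (SE), and Dennd2a at -1.27 ± 0.17 (SE). Of 27 GAPs, 9 rose and 7 fell, with Tbc1d9 at 1.09 ± 0.07 and Tbc1d17 at -0.73 ± 0.08 (SE). Tbc1d4, which controls glucose transporter vesicles in muscle, fell, at -0.64 ± 0.07 (SE). The shares that rose and fell were 36.8% and 42.1% of the effectors, 50% and 25% of the GEFs, and 33.3% and 25.9% of the GAPs, beside 30.9% and 33.8% of all probe sets, and the lists were not tested against these. Of 5 chaperones only the GDP dissociation inhibitor Gdi2 passed, at 0.26 ± 0.04 (SE).

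In the T cells no Rab gene passed the threshold between any 2 days. Of 44 genes tested, limma called 0 between day 3 and day 1, 0 between day 7 and day 1 and 0 between day 7 and day 3, where 0%, 0.575% and 0% of all 19464 probe sets were called. At an unadjusted p below 0.05 the counts were 3, 8 and 1, or 6.82%, 18.2% and 2.27% of the Rab genes, beside 8.3%, 23.9% and 5.39% of all probe sets. Rab4a, which had the lowest adjusted p between day 7 and day 1, went from 399, 562 and 488 to 595, 652 and 690 (0.42 ± 0.11 SE, limma adjusted p = 0.0912) and Rab9a from 989, 1074 and 1000 to 1195, 1246 and 1499 (0.35 ± 0.09 SE, limma adjusted p = 0.0946). Rab33a went from 324, 511 and 457 to 458, 625 and 677 (0.44 ± 0.13 SE, limma adjusted p = 0.114). When the tissues were fitted together, which adds residual degrees of freedom, Rab35, Rab4a and Rab9a passed between day 7 and day 1, 6.12% of the 49 Rab genes tested beside 10.8% of all probe sets. Without the untreated day 1 array the counts remained at 0.

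**Figure D3:**
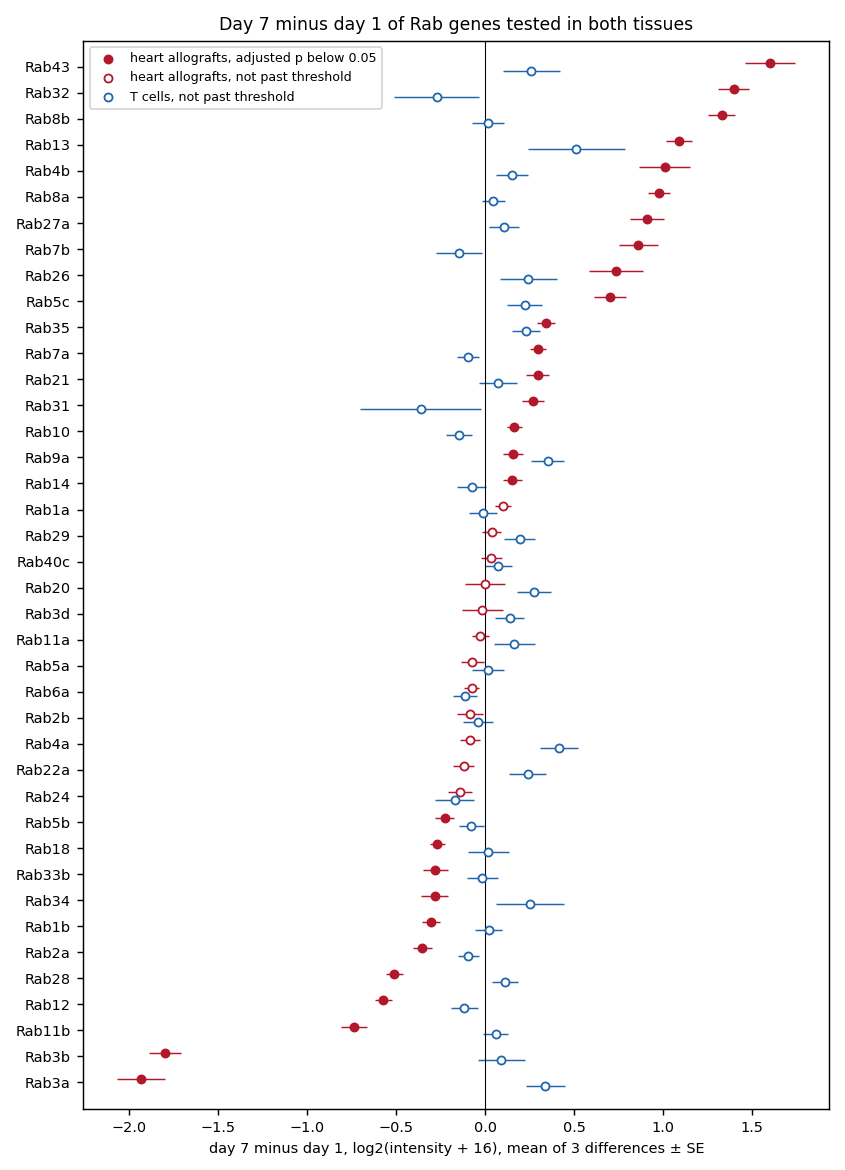
Difference between day 7 and day 1 (x axis, mean log2 difference of 3 treatment groups, bars ± SE) of the 40 Rab genes tested in each tissue, red for grafts and blue for T cells. The red points run from 1.60 for Rab43 to -1.93 for Rab3a, filled where past an adjusted p of 0.05, and all blue points are open and lie between -0.36 and 0.51. Rab26 and Rab43 were below the filter level on the day 1 grafts, so no test is read from their filled red points. The red point is farther from 0 for 29 genes and the blue one for 11, among them Rab4a.

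The change from day 1 to day 7 was then compared between the tissues in 1 model. Of 49 Rab genes tested, 12 had a higher change in the grafts than in the T cells and 10 a lower one (limma interaction, adjusted p below 0.05), where 23.5% of all probe sets were higher and 23.2% lower. Rab32 rose in the grafts and gave -0.27 ± 0.24 (SE) in T cells, a difference of 1.67 ± 0.28 (SE, limma adjusted p = 0.000454). Without the untreated day 1 T cell array, on which it was high, it gave 0.03 ± 0.20 (SE) in T cells and a difference of 1.36 ± 0.22 (SE, limma adjusted p = 0.000414). Rab43 and Rab8b differed by 1.34 ± 0.22 and 1.31 ± 0.12 (SE), and without that array by 1.27 ± 0.24 and 1.39 ± 0.12 (SE), so that the order of these genes depended on it. Rab43 was above the filter level on 0 day 1 grafts, so no test is read from its difference. Rab3a differed by -2.27 ± 0.17 (SE, limma adjusted p = 1.56e-06), as it fell in the grafts and gave 0.34 ± 0.11 (SE) in T cells. Rab3b and Rab11b differed by -1.89 ± 0.15 and -0.79 ± 0.10 (SE). Rab40b was called too, at -1.90 ± 0.25 (SE). It was above the filter level on 0 day 7 grafts and 0 T cell arrays, so no test is read from it. Rab19 and Rab37, above the filter level on 1 and 0 of the 9 graft arrays, were called as well, but their graft values lay near background on every day and no test is read from them. Rab19 went from 31.4, 45.2 and 29.0 on day 1 to 93.6, 144 and 123 on day 7 in the grafts, and Rab37 from 43.7, 39.2 and 22.2 to 94.0, 100 and 91.2. Those graft levels remained below every T cell array, and the T cell marker sum of the grafts rose beside them, a part that was not tested.

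The array that stood apart enters this model. Without it 24 Rab genes were called, 49% of those tested beside 45.7% of all probe sets: Rab22a was lost, and Rab11a, Rab18 and Rab34 were gained. For the change from day 1 to day 3, no Rab gene had a higher change in the grafts and 1 had a lower one, Rab3a at -0.62 ± 0.18 (SE, limma adjusted p = 0.0459), beside 4.61% of all probe sets higher and 4.2% lower. That call was lost without the untreated day 1 T cell array (limma adjusted p = 0.068), where Rab30 was called instead, at -0.99 ± 0.25 (SE). Rab30 was above the filter level on only 2 T cell arrays, so no test is read from it.

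The study was designed to compare the treatments, and no Rab gene passed the threshold for any treatment difference in either tissue. Each treatment was compared over its 3 arrays, 1 for each day, and both treatments were set against the same untreated arrays. In the grafts limma called 0 of 45 Rab genes for cyclosporine against untreated, for cyclosporine plus peptide against untreated, and for the peptide added to cyclosporine, and in the T cells it called 0 of 44 for each of them. In all 6 comparisons 0% of all probe sets were called. At an unadjusted p below 0.05 the counts were 3, 6 and 0 in the grafts, or 6.67%, 13.3% and 0% of the Rab genes beside 11.6%, 16% and 4.83% of all probe sets. In the T cells they were 6, 16 and 2, or 13.6%, 36.4% and 4.55% beside 11.4%, 23.8% and 4.4%. The lowest adjusted p of a Rab gene was 0.213, 0.195 and 0.968 in the grafts and 0.371, 0.116 and 0.888 in the T cells (limma). For the treatment differences between grafts and T cells limma also called 0 of 49 Rab genes, beside 0.00448% of all probe sets for each treatment, and at an unadjusted p below 0.05 the counts were 6 and 10, or 12.2% and 20.4% of the Rab genes beside 10.2% and 20.7% of all probe sets.

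**Figure D4:**
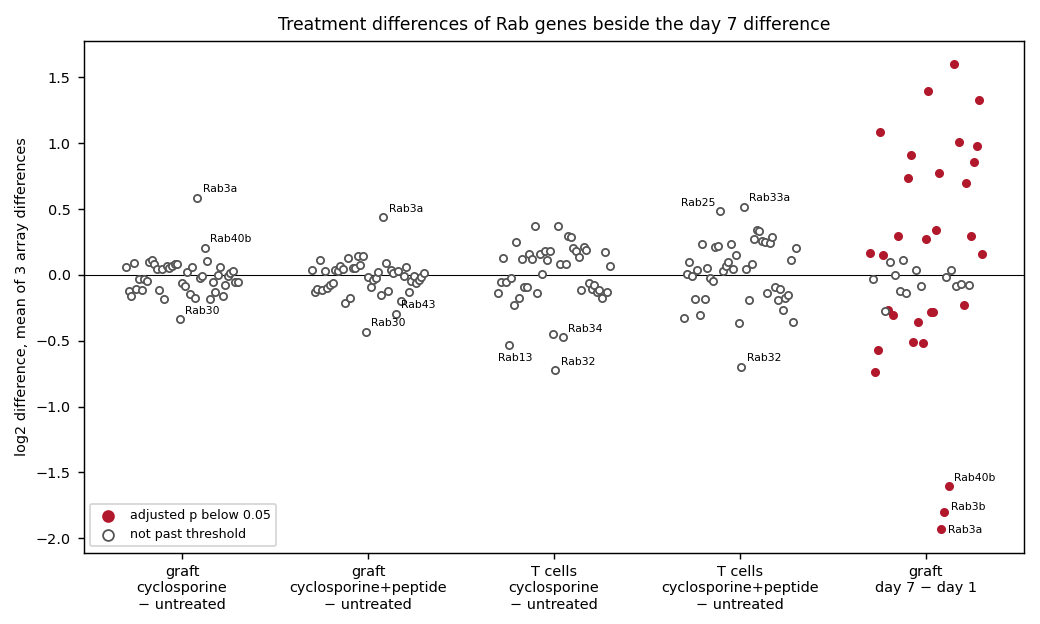
Log2 difference of each tested Rab gene (points, mean of 3 array differences) for both treatments against the untreated arrays in grafts and T cells, beside the day 7 against day 1 difference in the grafts. Every treatment point is open (not past an adjusted p of 0.05) and lies between -0.72 and 0.59, while the day 7 points reach 1.60 and -1.93. No test is read from the day 7 points of Rab26, Rab40b and Rab43, which were below the filter level on day 1 or day 7.

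Rab3a had the highest treatment difference in the grafts. It was lower in the untreated grafts than in the grafts of both treatments on all 3 days: 587 against 725 and 792 on day 1, 351 against 725 and 513 on day 3, and 138 against 195 and 183 on day 7. The log2 difference was 0.59 ± 0.13 for cyclosporine (SE, limma adjusted p = 0.213) and 0.44 ± 0.13 for cyclosporine plus peptide (SE, limma adjusted p = 0.222). Rab30 was lower with cyclosporine on each day, with 768, 531 and 550 against 910, 663 and 763 in the untreated grafts (-0.34 ± 0.10 SE, limma adjusted p = 0.307). Rab43 gave -0.30 ± 0.14 (SE, limma adjusted p = 0.349) for cyclosporine plus peptide. The peptide added to cyclosporine gave differences between -0.17 and 0.12 for the 45 Rab genes tested in the grafts. Cell markers of the grafts also differed by treatment. The neutrophil sum was 11859 and 12321 in the untreated grafts of days 1 and 3 against 5110 to 6295 in the treated ones. The cardiomyocyte sum was 99843 in the untreated graft against 113780 and 116418 on day 3, and 83775 against 98235 and 95820 on day 7. The part of these markers in the Rab values was not tested. None of the Rab values passed, and with 3 arrays a group a missed threshold does not show that the treatments act alike.

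In the T cells Rab25 and Rab33a were lower in the untreated samples. Rab25 had 296, 370 and 334 without treatment, 403, 410 and 491 with cyclosporine, and 381, 473 and 575 with cyclosporine plus peptide on days 1, 3 and 7, so that both treatments lay above the untreated sample on each day. The log2 differences were 0.37 ± 0.12 (SE, limma adjusted p = 0.371) and 0.48 ± 0.12 (SE, limma adjusted p = 0.116). Rab33a had 324, 434 and 458 without treatment and 457, 634 and 677 with cyclosporine plus peptide, a difference of 0.52 ± 0.13 (SE, limma adjusted p = 0.116). Rab10, which moves receptors and glucose transporters to the surface, had 3419, 3296 and 3137 without treatment and 2791, 2449 and 2602 with cyclosporine plus peptide (-0.33 ± 0.07 SE, limma adjusted p = 0.116).

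For cyclosporine plus peptide in T cells the call depended on the arrays and the model. Without the day 1 arrays, which include the one that stood apart, 6 Rab genes passed: Rab25 (0.55), Rab33a (0.54), Rab3d (0.33) and Rab9a (0.30) were higher, and Rab10 (-0.35) and Rab8b (-0.47) were lower (limma adjusted p between 0.0254 and 0.043). That was 13.6% of the Rab genes tested and near the 13.1% of all probe sets. With only the untreated day 1 array left out the count was 0. With the tissues fitted together 8 passed, namely Rab10, Rab18, Rab32, Rab40c, Rab5b, Rab6a, Rab7a and Rab8b, 16.3% of the 49 tested beside 9.63% of all probe sets. Rab32 had the lowest cyclosporine difference in T cells, -0.72 ± 0.24 (SE, limma adjusted p = 0.38), and without the untreated day 1 array it was -0.42 ± 0.20 (SE, limma adjusted p = 0.736). The macrophage sum of the T cell samples was 24728 to 33955 with the treatments and 32484 to 39938 without, and the part of other cells in these differences was not tested.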

How the data were processed

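Expression in 18 rat samples was measured on single-colour oligonucleotide arrays with biotin-labelled RNA, per the labels. The authors deposited 1 table of linear intensity values for 31099 probe sets; software, normalization and background correction are not stated in the labels or the table, and 771 intensities were below 0. Without its 57 control probe sets, the table held 20826 with 1 gene symbol in GEO's platform annotation, 436 with several and 9780 with none.

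Intensities below 0 were set to 0, 16 was added and log2 taken, so that differences of dim genes are understated. limma 3.58.1 in R 4.3.3 (eBayes with a trend) was fitted to all probe sets above the 40th percentile of their array on at least 3 arrays of the fit, with p-values adjusted by Benjamini-Hochberg over all of them and called below 0.05. The tissue fit used 18 arrays with tissue, treatment and day as terms, the fits within a tissue 9 arrays with treatment and day as terms, and the interaction fits 18 arrays with tissue, treatment, day and their tissue interactions. Values after ± are standard errors (SE) of those fits. The number of arrays limits the precision. The code was tested on simulated data. The Rab genes, their groups, the lists of partners and the cell type markers were chosen with earlier results of these data known. The genes named for a comparison are the 4 with the highest and the 4 with the lowest difference among those past the threshold that moved the same way in every matched pair of arrays, or, where none passed, up to 3 with the most even shift over the 3 matched pairs. Further genes that the text names, such as close relatives, illustrate the group counts and were chosen with their values known.

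Alternatives were quantile normalization (of the 18 arrays together, or of each tissue), equal array medians, pseudocounts of 4 and 64, no filter, no trend, the mean or the second-highest probe set of a gene, leaving out the arrays of 1 treatment or day, days 1 and 3 only, a block for treatment and day, and both tissues in 1 fit. Leaving out the untreated day 1 T cell array was added after its values were seen. Promoter windows came from RefSeq (GRCr8); 11 Rab genes had no matching entry.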

Additional observations from a re-analysis of the deposited data

Results flagged for a closer look

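For 22 of 49 Rab genes the change from day 1 to day 7 differed between grafts and T cells. The limma interaction test is what singled them out. Over all probe sets tested, 23.5% had a higher change in the grafts and 23.2% a lower one, so the share called among the Rab genes was near that of the array. The log2 difference (grafts minus T cells) was above 0 for Rab32 (1.67), Rab43 (1.34), Rab8b (1.31), Rab19 (1.10), Rab37 (1.04), Rab7b (1.01), Rab8a (0.93), Rab4b (0.86), Rab27a (0.80), Rab5c (0.48), Rab7a (0.39) and Rab10 (0.31). It was below 0 for Rab3a (-2.27), Rab40b (-1.90), Rab3b (-1.89), Rab11b (-0.79), Rab28 (-0.62), Rab4a (-0.50), Rab12 (-0.45), Rab22a (-0.36), Rab1b (-0.33) and Rab2a (-0.26). Among them Rab4a and Rab22a, tested in each tissue, did not pass between day 1 and day 7 in either. Rab19 and Rab37, above the filter level on 1 and 0 of the 9 graft arrays, were not tested within the grafts. Rab40b was above that level on 0 day 7 grafts and 0 T cell arrays. Rab43 was above that level on 0 day 1 grafts. No test is read from Rab19, Rab37, Rab40b and Rab43. Without the untreated day 1 T cell array Rab32 gave 1.36 and Rab22a no longer passed. For the change from day 1 to day 3 only Rab3a was singled out, at -0.62.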

How the results depend on the processing

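The labels give no replicate numbers, and each combination of tissue, treatment and day has 1 array, so a lone array decides much and no spread within a combination can be measured. The intensities carry no detection calls, and genes near the filter level are read with least certainty. The tissue count of 43 Rab genes stayed between 42 and 47 over its alternatives, and the graft day 7 against day 1 count of 31 between 24 and 34. The graft day 3 against day 1 count of 13 was 8 with no trend in the spread, 7 with both tissues in 1 fit, and 4 to 9 when the arrays of 1 treatment were left out. With both tissues in 1 fit, the T cell day 7 against day 1 count went from 0 to 3 and the T cell count for cyclosporine plus peptide against untreated from 0 to 8; leaving out the arrays of 1 day gave 0 to 6 for the latter. The interaction count of day 3 against day 1 went from 1 to 0 with no filter, with no trend and with the second-highest probe set, and to 0 to 1 when the arrays of 1 treatment were left out. Of the values for named genes, 4 changed sign, none of them past the threshold: Rab23 for cyclosporine plus peptide in the grafts (0.015) and Rab3a for cyclosporine in T cells (-0.10), both with the second-highest probe set, and Rab14 for the peptide added to cyclosporine in the grafts (-0.030 with the mean of its probe sets, -0.011 with the second-highest). The cause of these shifts was not tested. Of the other values recomputed for named genes, 885 kept their direction and their side of the threshold, 28 no longer passed and 5 newly passed. Setting array medians equal moved the median of all probe sets between the tissues from 0.15 to 0.25, and the tissue split of Rab genes was then 17 higher and 26 lower.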
